A study of Mus musculus with 12 samples.

Results

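The genes described here are the integrin and laminin subunit genes, taken as all symbols in the platform annotation made of Itga or Itgb with a number or single letter, or of Lama, Lamb or Lamc with a number. The naming rule used no measured value, and it found 36 genes among the 19938 measured: 18 integrin alpha, 8 integrin beta, 5 laminin alpha, 3 laminin beta and 2 laminin gamma genes. No filter on low values was applied, so all 36 were tested. Itgad was the 1 member with more than 1 probe set.

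Integrins and laminins are the receptor and ligand sides of the contact between a cell and its basement membrane. An integrin is a heterodimer of an alpha and a beta subunit that spans the cell membrane, binds laminin, collagen, fibronectin or a counter-receptor on another cell, and is coupled inside the cell to the actin cytoskeleton. A laminin is a heterotrimer of an alpha, a beta and a gamma chain that assembles into the sheet on which endothelium and smooth muscle of the arterial wall rest.

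The expression values come from 12 Affymetrix arrays, 1 for each RNA sample, on 4 arteries of untreated wild-type C57BL/6 mice aged 8 weeks: the ascending and the descending aorta, the coronary artery and the superior mesenteric artery, with 3 biological replicates of each. The series title sets these vessels side by side for their differing embryonic origin. The labels do not say whether a replicate is 1 animal or a pool, and a p-value here speaks only of how far these arrays scatter. Expression is given as log2 values, levels are given as mean ± SD with n = 3 arrays, differences as log2 units ± SE, and a probe set's level cannot be set against another's. In the main fit, the SE and p-value of a contrast use the gene's spread pooled over all 4 vessels, including those outside the contrast. Whether low values lie above background is not known and a fold against such a low level may be too small.

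Whole vessels hold several cell types, and some arrays stood apart in them. The means of 9 smooth muscle markers ran from 7.14 to 7.48 in descending aorta and from 5.38 to 5.74 in coronary artery. In the order of the replicates they were 6.44, 8.51 and 8.65 in ascending aorta, and 9.64, 6.39 and 6.99 in superior mesenteric artery. The coronary arrays carried heart muscle transcripts, with a cardiomyocyte marker mean between 10.25 and 10.41, against at most 5.91 in the other arrays. B cell markers had a mean of 6.80 and 6.41 in replicates 2 and 3 of superior mesenteric artery and of 7.74 in ascending aorta replicate 1, against at most 4.87 elsewhere. Pancreatic acinar markers averaged 9.42 in superior mesenteric artery replicate 3 and at most 5.15 elsewhere. In such bulk samples, fewer cells of a type and less RNA per cell cannot be told apart.

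Most integrin and laminin genes did not pass the test for a difference among the vessels. In limma's moderated F test over all genes, 3 of the 36 members passed at an adjusted p under 0.05 (8.33%), against a background of 4.72% of all genes. They were Itga8, Itgb6 and Itga6, each with a different order of the vessels, and none of the 10 laminin chains was among them. At an unadjusted p under 0.05 the member count was 6, or 16.7% against 16.4% of all genes. The limma count of 3 became 5 without ascending aorta replicate 1 (9.15% of all genes passed in that fit). It was 1 without ascending aorta replicate 3, coronary artery replicate 2 or descending aorta replicate 2 or 3 (2.76% to 5.02% of all genes). It was 0 without coronary artery replicate 1 or 3 (3.19% and 3.02%). It was 12, with 10.5% of all genes, without the 3 arrays with the most B and T cell transcripts (ascending aorta replicate 1 and superior mesenteric artery replicates 2 and 3), a fit in which superior mesenteric artery has 1 array, assumed to vary like the other vessels. With each of the 12 arrays removed in turn, Itgb6 passed the F test in 10 fits, Itga8 in 4 and Itga6 in 3.

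**Figure D1:**
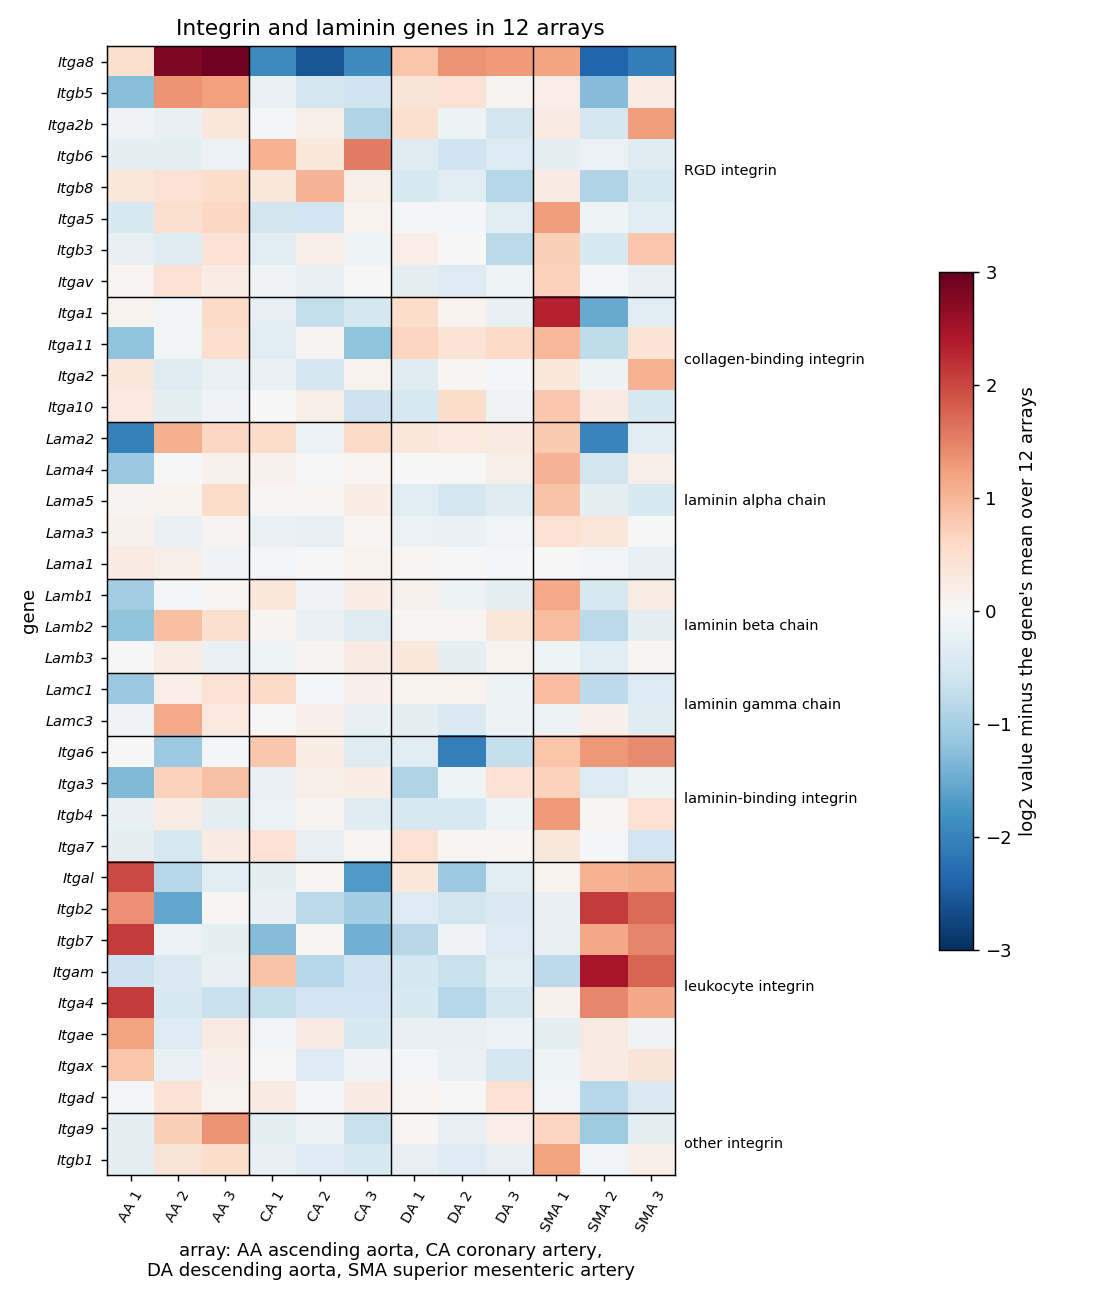
Log2 value of each of the 36 genes (rows, grouped by role) in each of the 12 arrays (columns, grouped by vessel), as the difference from that gene's mean over all arrays; red is above and blue below, and the colour scale ends at 3 in either direction. Itga8 has the widest span of the genes drawn, Itga4, Itgal, Itgb2 and Itgb7 are red in ascending aorta replicate 1 and superior mesenteric artery replicates 2 and 3, and several laminin chains are blue in ascending aorta replicate 1 and red in superior mesenteric artery replicate 1.

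By pair of vessels, limma called 2 of 36 members between ascending aorta and coronary artery (background 2.47% of all genes). They were Itga8, higher in ascending aorta (as were 0.602% of all genes), and Itgb6, lower there (as were 1.87%). It called 1 between coronary artery and descending aorta (background 3.14%), Itgb6, and 1 between coronary and superior mesenteric artery (background 3.24%), again Itgb6. Between descending aorta and superior mesenteric artery it called 1, Itga6 (background 3.2%). None passed limma's test between ascending and descending aorta (background 0.015%), where 4 members had an unadjusted p under 0.05 (background 9.64%). None passed between ascending aorta and superior mesenteric artery either (background 0.176%), where 6 had an unadjusted p under 0.05 (background 7.22%). At that unadjusted threshold limma had 9 members between coronary and superior mesenteric artery (25%, background 14.8%) and 9 between descending aorta and superior mesenteric artery (25%, background 13.9%).

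Single arrays moved these limma counts, and in several of these fits the share of all genes called moved too. For ascending aorta against coronary artery the count was 0 without ascending aorta replicate 2 or 3 or coronary artery replicate 1 or 3, and 1 without coronary artery replicate 2. For coronary artery against descending aorta it was 2 when either replicate 1 of ascending aorta or replicate 2 of superior mesenteric artery was removed, and 3 without superior mesenteric artery replicate 1. For coronary against superior mesenteric artery it was 4 without the first replicate of ascending aorta or of superior mesenteric artery, and 0 without coronary artery replicate 1 or 3 or superior mesenteric artery replicate 3. For descending aorta against superior mesenteric artery it was 2 and 3 without those first replicates, and 0 without descending aorta replicate 2 or superior mesenteric artery replicate 3. For ascending aorta against superior mesenteric artery it was 3 and 2 without those first replicates. The share of all genes was 1.26% to 2.22% for ascending aorta against coronary artery in the fits named. For the other pairs, in the order above, it was 5.3%, 6.48%, 6.83% and 3.15% without ascending aorta replicate 1. With all arrays these shares were 3.14%, 3.24%, 3.2% and 0.176%. For coronary against superior mesenteric artery it was 2.2% and 1.57% without coronary artery replicate 1 and 3. Without superior mesenteric artery replicate 1 it was 3.31% for coronary artery against descending aorta and 0.386% for ascending aorta against superior mesenteric artery. For descending aorta against superior mesenteric artery it was 1.09% without descending aorta replicate 2. Counts given here without a share are not read as a trait of the members.

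The 3 arrays of one vessel lay wholly above or below those of the other for 4 members between ascending aorta and coronary artery (11.1%, background 19.3%) and for 3 between ascending aorta and superior mesenteric artery (8.33%, background 9.35%). Coronary artery was so separated from descending aorta for 7 members (19.4%, background 22.4%) and from superior mesenteric artery for 6 (16.7%, background 22.4%). For descending aorta against superior mesenteric artery the count was 8 (22.2%, background 22.9%), with descending aorta lower in 7 (19.4%, background 10.4% in that direction). Ascending and descending aorta were separated for 5 (13.9%, background 15.7%), all 5 higher in ascending aorta (background 6.09% in that direction).

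Starting with the RGD-binding group, whose alpha and beta subunits recognise a short arginine-glycine-aspartate stretch in fibronectin, vitronectin, nephronectin and the latent form of TGF-beta, Itga8 and Itgb6 passed the F test and the other 6 did not. The promoters of this pair are shown because they are the 2 members past the F test with an entry in the promoter table. Itga6, the other member past it, had no entry. They are from RefSeq on GRCm38.p6, 250 bases before to 50 bases after the annotated start, printed 5′ to 3′ on the gene's own strand. Itga8 has 1 start, at chr2:12301895-12302194 on the minus strand, and Itgb6 has 2, at chr2:60722554-60722853 (upstream) and chr2:60673644-60673943 (downstream), also on the minus strand. Capitals mark any match on either strand to TATAAA, to the GC box GGGCGG or to the CArG box, the element bound by serum response factor in many muscle genes.
Itga8: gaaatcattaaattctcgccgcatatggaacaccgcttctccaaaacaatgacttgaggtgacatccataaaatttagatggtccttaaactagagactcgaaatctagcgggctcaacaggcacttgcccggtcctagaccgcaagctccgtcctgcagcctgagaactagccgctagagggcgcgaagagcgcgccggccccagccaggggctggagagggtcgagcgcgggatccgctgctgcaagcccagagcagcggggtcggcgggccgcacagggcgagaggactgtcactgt
Itgb6 upstream start: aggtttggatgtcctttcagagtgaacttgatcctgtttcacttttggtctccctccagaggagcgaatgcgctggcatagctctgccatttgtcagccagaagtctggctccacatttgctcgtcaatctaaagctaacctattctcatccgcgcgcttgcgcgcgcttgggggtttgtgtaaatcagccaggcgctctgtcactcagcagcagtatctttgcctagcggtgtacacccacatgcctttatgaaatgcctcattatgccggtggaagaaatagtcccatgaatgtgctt
Itgb6 downstream start: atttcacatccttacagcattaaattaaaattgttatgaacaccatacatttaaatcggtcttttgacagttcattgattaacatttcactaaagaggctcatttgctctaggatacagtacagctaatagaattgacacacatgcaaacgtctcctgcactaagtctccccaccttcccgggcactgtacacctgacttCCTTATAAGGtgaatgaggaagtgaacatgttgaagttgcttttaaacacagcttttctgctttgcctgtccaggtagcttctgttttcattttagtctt
The 1 match lies in the downstream Itgb6 window and is a CArG box, which 1.63% of all 32851 promoter windows hold. Neither TATAAA, held by 13.6% of windows, nor the GC box, held by 35.7%, is in any of the 3. The Itga8 window is 59% G and C, and the Itgb6 windows are 50.3% and 38.3%, against a median of 52.7%. The array does not measure which start was used. Of the 36 members, 23 had an entry in the promoter table; their 26 windows held 0 TATAAA matches, 12 held a GC box, and 2 held a CArG box, 1 each for Itgb6 and Lama2.

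Itga8 encodes a subunit that pairs with the product of Itgb1 and binds nephronectin and fibronectin; it is known in vascular smooth muscle. Its values were 6.55, 8.86 and 8.97 in ascending aorta, 6.90, 7.41 and 7.33 in descending aorta, 7.26, 3.68 and 4.0 in superior mesenteric artery, and 4.16, 3.50 and 4.16 in coronary artery. All 6 aortic arrays lay above all 3 coronary arrays, and superior mesenteric artery held 1 array at the aortic level and 2 at the coronary level. The vessel means were 8.13 ± 1.36, 7.21 ± 0.28, 4.98 ± 1.98 and 3.94 ± 0.38 in that order (limma F test adjusted p = 0.0236). Neighbours in this order did not pass limma's contrasts (adjusted p = 0.746 for the aortic segments, 0.211 for descending aorta and superior mesenteric artery, and 0.606 for superior mesenteric and coronary artery).

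Ascending aorta exceeded coronary artery in Itga8 by 4.19 ± 0.82, an 18.2-fold difference (limma adjusted p = 0.0163). Descending aorta stood 3.27 ± 0.82 above coronary artery and missed the threshold (limma adjusted p = 0.0519), although the arrays of those vessels do not overlap. That SE takes in the SDs of ascending aorta and superior mesenteric artery, 1.36 and 1.98, beside 0.28 in descending aorta and 0.38 in coronary artery. That contrast of Itga8 passed in 10 of 24 alternatives, among them the fits without ascending aorta replicate 1 and without superior mesenteric artery replicate 1 or 2. The difference between ascending aorta and coronary artery, at 3.76 to 4.30, missed the threshold when any 1 coronary array or replicate 2 or 3 of ascending aorta was removed (limma adjusted p from 0.0537 to 0.0773). Without ascending aorta replicate 1 it was 4.97 (limma adjusted p = 0.00173). The smooth muscle marker mean moved with Itga8: it was lowest in the coronary arrays, and within superior mesenteric artery both were highest in replicate 1. With that mean as a covariate, the difference between ascending aorta and coronary artery was 1.62 and passed (limma adjusted p = 0.00763). The marker means of these vessels did not overlap, at 6.44 to 8.65 in ascending aorta and 5.38 to 5.74 in coronary artery, so that fit extrapolates. Ascending aorta replicate 1 and superior mesenteric artery replicate 2 had smooth muscle means of 6.44 and 6.39 and Itga8 values of 6.55 and 3.68. The part of smooth muscle content in the Itga8 difference cannot be told apart from that of the vessel.

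**Figure D2:**
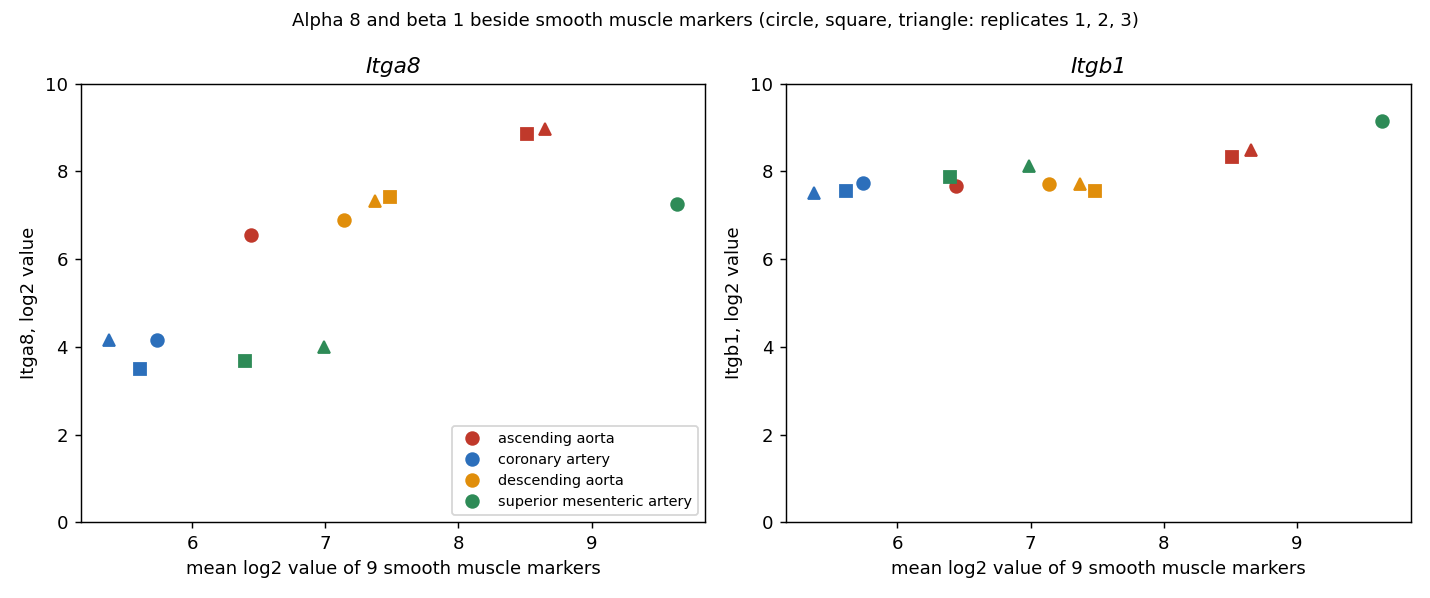
Log2 value of Itga8 (left) and of its partner Itgb1 (right) against the mean log2 value of 9 smooth muscle markers, 1 point per array, coloured by vessel, with the shape giving the replicate. Itga8 is between 3.50 and 4.16 in the coronary arrays and between 6.55 and 8.97 in the aortic arrays, while Itgb1 stays between 7.50 and 9.15 over all arrays.

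Npnt, which encodes the Itga8 ligand nephronectin, averaged 3.78 ± 0.44 in coronary artery, 4.77 ± 1.62 in superior mesenteric artery, and 5.40 ± 0.12 and 6.27 ± 0.89 in descending and ascending aorta. The order of its means is that of Itga8, but Npnt did not pass limma's F test (adjusted p = 0.144). Itgb1, the beta subunit that most alpha subunits of the arterial wall share, averaged 8.16 ± 0.43 in ascending aorta, 7.60 ± 0.12 in coronary artery, 7.66 ± 0.08 in descending aorta and 8.38 ± 0.68 in superior mesenteric artery. Its 3 superior mesenteric arrays, at 9.15, 7.86 and 8.13, lay above all coronary and all descending aorta arrays, but the F test did not pass (limma adjusted p = 0.331).

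Itgb6 encodes the epithelial beta subunit that pairs with the product of Itgav and activates latent TGF-beta. Its values were 3.53, 2.81 and 4.02 in coronary artery, 2.19, 2.22 and 2.32 in ascending aorta, 2.12, 1.88 and 2.08 in descending aorta, and 2.20, 2.32 and 2.12 in superior mesenteric artery. Every coronary array lay above the other 9, which span less than the coronary arrays do. Coronary artery, at 3.45 ± 0.61, exceeded descending aorta by 1.43 ± 0.25 (2.69-fold; limma adjusted p = 0.00624) and superior mesenteric artery by 1.24 ± 0.25 (2.36-fold; limma adjusted p = 0.0155). It exceeded ascending aorta by 2.31-fold, a difference of -1.21 ± 0.25 for ascending aorta minus coronary artery (limma adjusted p = 0.0228). Itgb6 was the 1 member whose mean lay in the dimmest 25% of all genes.

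The Itgb6 difference from descending aorta passed with each of the 12 arrays removed in turn (limma adjusted p from 0.000567 to 0.0417). The difference from ascending aorta lost its call when replicate 2 or 3 of ascending aorta (limma adjusted p = 0.0655 and 0.0505) or replicate 1 or 3 of coronary artery (0.0877 and 0.0826) was removed. That from superior mesenteric artery lost its call without coronary artery replicate 1 or 3 or superior mesenteric artery replicate 3 (limma adjusted p = 0.0628, 0.0622 and 0.0703). Heart muscle markers separate the same arrays, at 10.25 to 10.41 in coronary artery, and mesothelial markers averaged between 7.61 and 8.29 there. Mesothelial markers were also at 7.78 and 7.61 in superior mesenteric artery replicates 2 and 3, where Itgb6 was at 2.32 and 2.12. The mean of 4 epithelial markers was 4.56 to 4.85 in the coronary arrays and 4.95 and 4.85 in those same mesenteric arrays. The part of heart muscle, mesothelial or epithelial transcripts in the Itgb6 difference was not tested.

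**Figure D3:**
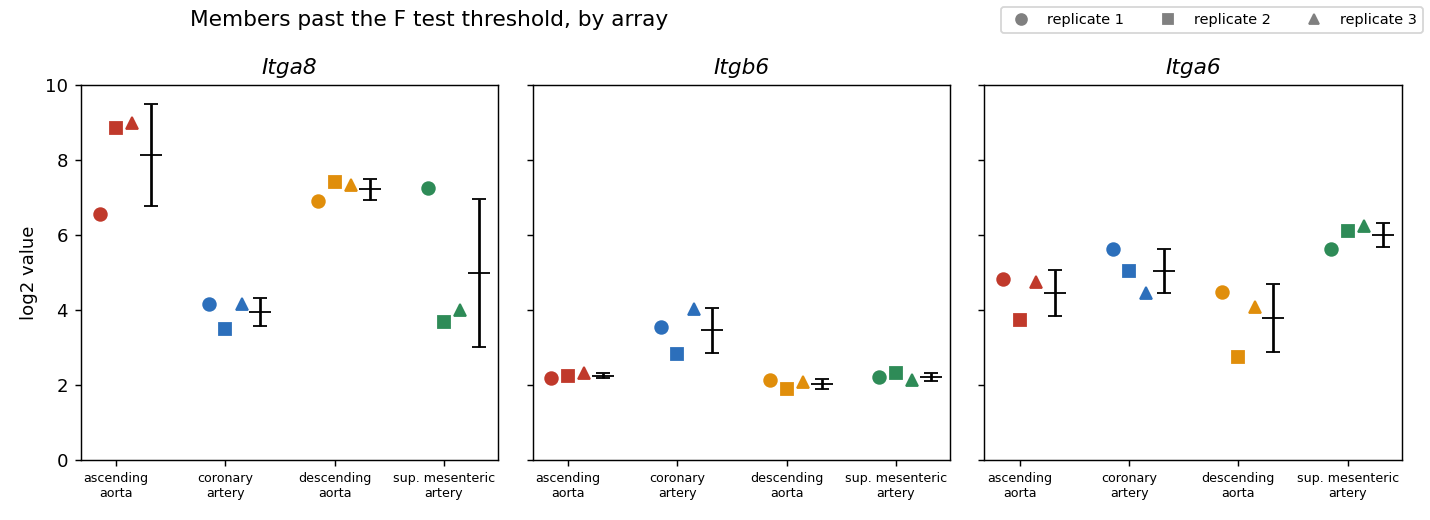
Log2 value of Itga8, Itgb6 and Itga6 in each array by vessel (circle, square and triangle for replicates 1, 2 and 3), with the vessel mean and SD over 3 arrays as a black bar. Itga8 spreads from 3.68 to 7.26 within superior mesenteric artery, the coronary arrays lie above all others in Itgb6, and the superior mesenteric arrays lie above all others in Itga6.

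The remaining RGD-binding genes gave no call. Itgav, the alpha partner of several beta subunits here, averaged 6.57 ± 0.19 in ascending aorta, 6.22 ± 0.12 in coronary artery, 6.06 ± 0.12 in descending aorta and 6.47 ± 0.47 in superior mesenteric artery (limma F test adjusted p = 0.489). Itgb8, whose product also pairs with that of Itgav and activates latent TGF-beta, was at 4.72, 4.83 and 4.91 in ascending aorta, 4.73, 5.41 and 4.56 in coronary artery, 3.95, 4.05 and 3.53 in descending aorta and 4.64, 3.49 and 3.90 in superior mesenteric artery. Both vessels near the heart lay above descending aorta in every array, but Itgb8 missed the threshold (limma F test adjusted p = 0.0895; coronary artery minus descending aorta 1.06 ± 0.30, limma adjusted p = 0.0902). Itgb5, a vitronectin receptor subunit, was at 4.85, 7.48 and 7.36 in ascending aorta, so that its SD there, 1.48, was the largest of the 4 vessels (limma F test adjusted p = 0.714). Itga5, the fibronectin receptor alpha subunit, averaged between 4.74 and 5.34 in the 4 vessels. Itga2b and Itgb3, which together form the platelet fibrinogen receptor, averaged 4.19 to 4.78 and 4.47 to 5.03, and each was highest in superior mesenteric artery replicate 3, at 5.70 and 5.49, where the mean of 3 platelet markers was also highest, at 9.82. The part of platelets in these values was not tested.

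Among laminin-binding integrins, Itga6 passed and Itga3, Itga7 and Itgb4 did not. Itga6 encodes an alpha subunit that pairs with the products of Itgb1 or Itgb4 and is found on endothelium, epithelium and some blood cells. Its values were 5.63, 6.11 and 6.23 in superior mesenteric artery, 5.61, 5.04 and 4.45 in coronary artery, 4.83, 3.73 and 4.75 in ascending aorta, and 4.48, 2.75 and 4.09 in descending aorta. Each superior mesenteric array lay above the arrays of all other vessels, closely so for coronary artery replicate 1. Descending aorta minus superior mesenteric artery was -2.22 ± 0.44, a 4.66-fold difference with means of 3.77 ± 0.91 and 5.99 ± 0.32 (limma adjusted p = 0.0168). The other contrasts of Itga6 did not pass, with differences of -1.55 ± 0.44 for ascending aorta minus superior mesenteric artery (limma adjusted p = 0.277) and 1.26 ± 0.44 for coronary artery minus descending aorta (limma adjusted p = 0.205).

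The Itga6 call was lost without descending aorta replicate 2, its lowest array, where the difference was -1.71 (limma adjusted p = 0.0757), and without superior mesenteric artery replicate 2 or 3 (limma adjusted p = 0.0539 and 0.0754). With the B and T cell marker mean as a covariate it was -1.82 and passed (limma adjusted p = 0.0415). Without the 3 arrays highest in those markers it was -1.86, in a fit that leaves superior mesenteric artery 1 array and so cannot show whether the call holds. The endothelial marker mean was 7.50, 5.49 and 6.50 in superior mesenteric replicates 1, 2 and 3 and between 5.28 and 5.76 in descending aorta, so that replicate 2, with an Itga6 value of 6.11, lay within the descending aorta range of those markers. The part of endothelial transcripts in the Itga6 difference was not tested.

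Itgb4, the partner of Itga6 in the hemidesmosomes that anchor epithelium, was at 6.36, 5.15 and 5.55 in superior mesenteric artery and at 4.61, 4.63 and 4.95 in descending aorta. The arrays of those vessels did not overlap, and the difference of -0.96 ± 0.28 for descending aorta minus superior mesenteric artery missed the threshold (limma adjusted p = 0.0976). Itga3 averaged between 5.17 and 5.45 in the 4 vessels, with values of 4.04, 6.07 and 6.25 in ascending aorta (limma F test adjusted p = 0.975). Itga7, the laminin receptor subunit of skeletal, heart and smooth muscle, averaged 3.90 ± 0.38 in ascending aorta, 4.14 ± 0.34 in coronary artery, 4.27 ± 0.23 in descending aorta and 3.98 ± 0.46 in superior mesenteric artery. Its values spanned 1.05 over all 12 arrays, while the cardiomyocyte marker mean spanned 4.09 to 10.41.

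The 4 collagen-binding alpha subunits gave no call. Itga1, a collagen receptor of smooth muscle among other cells, was at 7.16, 3.35 and 4.53 in superior mesenteric artery and between 4.13 and 5.44 in the other 9 arrays. Its highest and its lowest array thus belong to the same vessel, in which the smooth muscle mean was 9.64, 6.39 and 6.99. Itga11, a collagen receptor of fibroblasts, averaged 4.82 ± 0.13 in descending aorta and 3.78 ± 0.65 in coronary artery; their arrays did not overlap (limma adjusted p = 0.4). Itga2, of platelets and epithelium, averaged between 4.27 and 4.87, and Itga10, of cartilage, between 3.86 and 4.20. Itga9, whose product binds tenascin and the endothelial adhesion molecule VCAM, averaged 6.50 ± 0.82 in ascending aorta and between 5.55 and 5.91 in the other vessels (limma F test adjusted p = 0.52).

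The 8 leukocyte integrin genes encode receptors by which lymphocytes and myeloid cells stick to endothelium and to each other. Of these, 0 of 8 passed limma's F test (beside 4.72% of all genes) or any contrast (0.015% to 3.24%). At an unadjusted p under 0.05 limma's F test had 1 of the 8, Itgad, beside 16.4% of all genes. At that threshold, limma's contrasts with superior mesenteric artery had Itga4, Itgad, Itgb2 and Itgb7 for coronary artery (background 14.8%). They had Itga4, Itgad, Itgam and Itgb2 for descending aorta (background 13.9%), and Itgad and Itgam for ascending aorta (background 7.22%). Itgad was lower in superior mesenteric artery and the others were higher there. Itga4, the subunit used by lymphocytes to bind VCAM, was at 7.49, 4.95 and 4.74 in ascending aorta, 5.52, 6.84 and 6.56 in superior mesenteric artery, and between 4.55 and 4.94 in the 6 coronary and descending aorta arrays. Itgb7, its partner in homing to the gut, was at 6.00, 3.73 and 3.61 in ascending aorta and 3.66, 5.05 and 5.36 in superior mesenteric artery, and was at most 3.95 in the remaining 6 arrays. Itgal, the alpha subunit of the lymphocyte receptor for ICAM, was at 6.70, 3.85 and 4.38 in ascending aorta and 4.81, 5.75 and 5.81 in superior mesenteric artery. For each of these 3 genes the highest arrays were ascending aorta replicate 1 and superior mesenteric artery replicates 2 and 3, the arrays that were highest in B cell and T cell markers. Their part in these levels was not tested.

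Itgam, the alpha subunit of the complement receptor of macrophages and neutrophils, had another pattern. It was at 7.0, 5.28 and 5.53 in coronary artery, at 5.49 in ascending aorta replicate 1, below the 5.71 and 5.92 of the other ascending aorta arrays, and at 5.36, 8.60 and 7.87 in superior mesenteric artery. The macrophage marker mean was 6.17, 7.79 and 7.11 in those mesenteric arrays and 6.06 to 6.72 in the coronary arrays, and its part in the Itgam values was not tested. Itgb2, the beta partner of Itgal, Itgam, Itgax and Itgad, was at 5.93, 8.25 and 7.83 in superior mesenteric artery and at 7.52 in ascending aorta replicate 1. The 3 highest arrays are those with the most B and T cell transcripts, and the other 9 lay between 4.58 and 6.18. Itgax, known from dendritic cells, spanned 3.03 to 4.37 and Itgae, the subunit by which intraepithelial T cells hold E-cadherin, 2.90 to 4.57, each with its highest value in ascending aorta replicate 1. Itgad averaged 3.21 ± 0.39 in superior mesenteric artery and between 3.81 and 3.83 in the other vessels (limma F test adjusted p = 0.284), and its second probe set spanned 2.64 to 3.78.

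**Figure D4:**
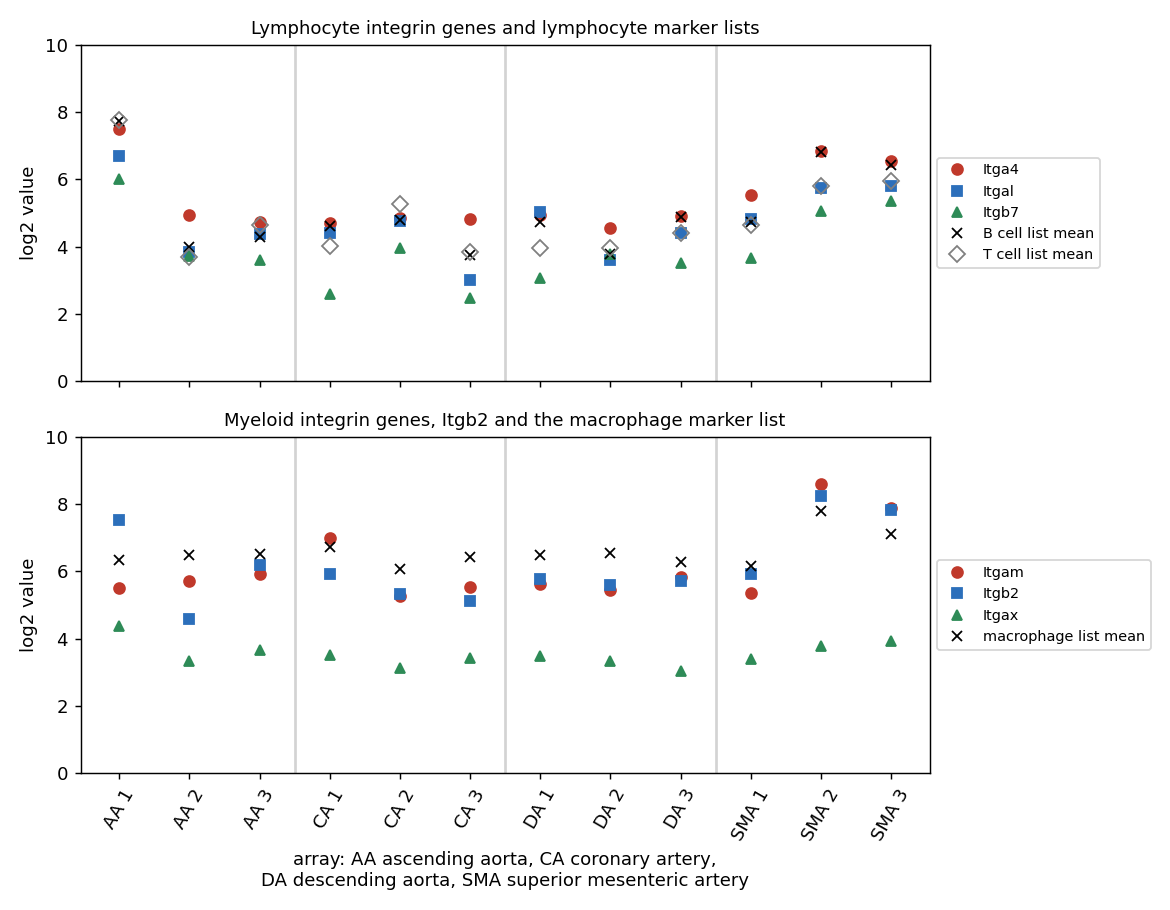
Log2 value by array of 3 lymphocyte integrin genes with the B cell and T cell marker means (top), and of Itgam, Itgb2 and Itgax with the macrophage marker mean (bottom). Itga4, Itgal and Itgb7 peak at 7.49, 6.70 and 6.00 in ascending aorta replicate 1, whereas Itgam peaks at 8.60 in superior mesenteric artery replicate 2 and is at 5.49 in ascending aorta replicate 1.

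As a group the leukocyte integrin genes had a median difference of -1.37 for coronary minus superior mesenteric artery and -1.18 for descending aorta minus superior mesenteric artery, with 1 of 8 positive in each, where 47.9% and 49% of all genes were positive. It was 0.54 for ascending aorta minus coronary artery and also for ascending minus descending aorta, -0.36 for ascending aorta minus superior mesenteric artery and -0.02 for coronary artery minus descending aorta. Within ascending aorta, replicate 1 was highest in Itga4, Itgae, Itgal, Itgax, Itgb2 and Itgb7 and lowest in Itgad and Itgam. The part of that array in these medians was not tested. Over all genes tested the medians lay between -0.02 and 0.00. Without ascending aorta replicate 1, limma called Itga4, Itgb2 and Itgb7 besides Itgb6 between coronary and superior mesenteric artery. Without superior mesenteric artery replicate 1 it called Itgam, Itgb2 and Itgb8 besides Itgb6 in that comparison, and Itgam in those of superior mesenteric artery with ascending and with descending aorta.

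None of the 10 laminin chain genes passed the F test (beside 4.72% of all genes) or a contrast (0.015% to 3.24%) in limma. At an unadjusted p under 0.05, 0 passed the F test, beside 16.4% of all genes. In single contrasts, Lama5 and Lamc3 (ascending against descending aorta) and Lama3 (superior mesenteric artery against coronary artery and descending aorta) had an unadjusted p under 0.05 in limma, as did 9.64% of all genes in the first of these comparisons, 14.8% in the second and 13.9% in the third. Lama2 encodes the alpha chain of muscle basement membranes. It was at 3.72, 6.82 and 6.35 in ascending aorta, 6.30, 5.58 and 6.32 in coronary artery, 6.09, 6.03 and 6.01 in descending aorta, and 6.54, 3.77 and 5.42 in superior mesenteric artery. Ascending aorta replicate 1 and superior mesenteric artery replicate 2 were thus the low arrays, and the SD was 1.67 and 1.39 in those vessels against 0.42 in coronary artery and 0.04 in descending aorta. Lama4 and Lama5 encode the alpha chains of vascular endothelial basement membranes. Lama4 averaged between 6.06 and 6.61, with values of 5.28, 6.38 and 6.52 in ascending aorta. Lama5 averaged 4.52 ± 0.26 in ascending aorta, 4.37 ± 0.11 in coronary artery, 3.87 ± 0.10 in descending aorta and 4.31 ± 0.70 in superior mesenteric artery. Every ascending aorta and coronary array of Lama5 exceeded every descending aorta array, by 0.64 ± 0.29 and 0.50 ± 0.29 on average, without a call (limma adjusted p = 0.508 and 0.548). These SEs pool the spread of all 4 vessels, among them the SD of 0.70 in superior mesenteric artery, which is in neither contrast.

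Lamb1 and Lamb2, the beta chains of most laminins, averaged between 5.52 and 6.16 and between 6.36 and 6.66 in the 4 vessels. Lamc1, the gamma chain that nearly all laminins share, averaged between 6.35 and 6.73 (limma F test adjusted p = 0.928). Its values were 5.39, 6.69 and 6.96 in ascending aorta and 7.43, 5.72 and 6.09 in superior mesenteric artery, so that replicate 1 of the former was the lowest and replicate 1 of the latter the highest of the 12 arrays. Lama1, an alpha chain of early embryonic basement membranes, averaged between 3.14 and 3.36. Lama3 and Lamb3, chains of the laminin under epithelia, spanned 3.04 to 3.74 and 3.08 to 3.71. Lamc3 averaged 4.74 ± 0.63 in ascending aorta and between 4.01 and 4.27 in the other vessels.

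**Figure D5:**
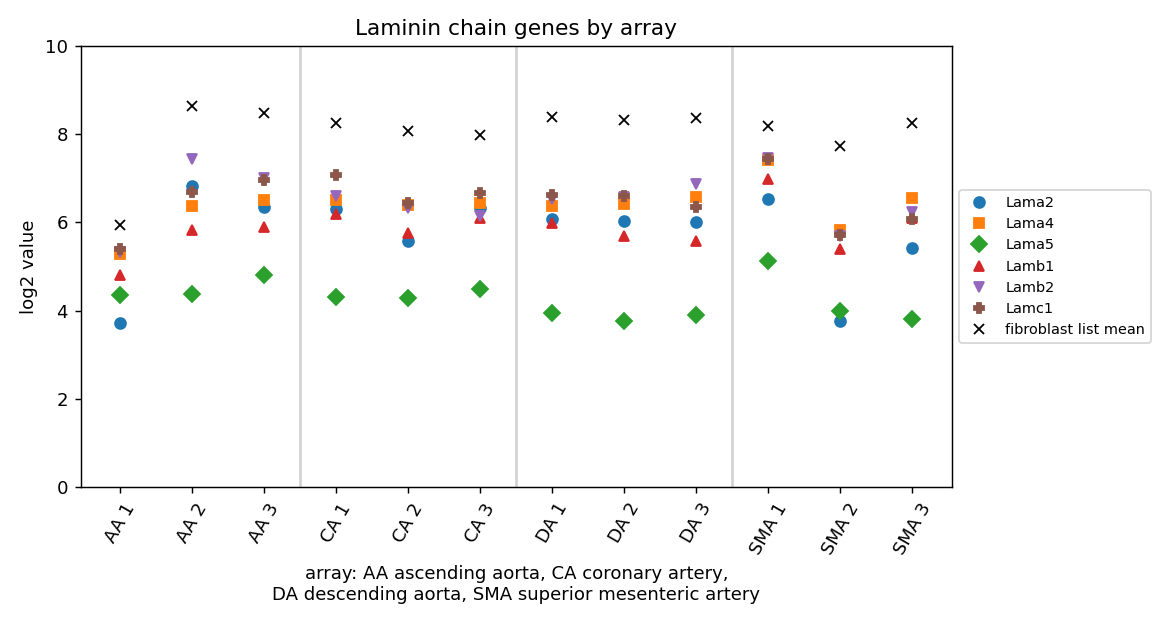
Log2 value of 6 laminin chain genes by array, with the mean of 7 fibroblast markers as crosses. Lama2, Lama4, Lamb1, Lamb2 and Lamc1 are lowest in ascending aorta replicate 1, where the fibroblast mean is 5.94, and Lama4, Lama5, Lamb1, Lamb2 and Lamc1 are highest in superior mesenteric artery replicate 1.

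Among the laminin chains, ascending aorta replicate 1 held the lowest value of 5 of the 10 chains, while it held the lowest value of 15.3% of all genes. Superior mesenteric artery replicate 1 held the highest value of 6 of 10, against 10.3% of all genes, and of 13 of all 36 members. In ascending aorta replicate 1 the fibroblast marker mean was 5.94, against 7.74 to 8.64 in the other 11 arrays, and in superior mesenteric artery replicate 1 the smooth muscle and endothelial means, 9.64 and 7.50, were the highest of the 12 arrays. Their part in the laminin values was not tested. The median difference of the laminin chains lay between -0.05 and 0.13 in the 6 pairs of vessels, beside medians between -0.02 and 0.00 for all genes. Without the 3 arrays highest in B and T cell markers, Lama5, Lamb1 and Lamb2 passed limma's F test; the 1 superior mesenteric array left in that fit is the replicate 1 just described.

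Of 23 measured focal adhesion genes, which couple integrin tails to actin, 2 passed limma's F test (8.7%, beside 4.72% of all genes), Itgb1bp2 and Tln1. Itgb1bp2 encodes melusin, a striated muscle protein that binds the tail of the Itgb1 product. It averaged 6.66 ± 0.09 in coronary artery and between 3.10 and 3.30 in the other vessels, with a difference of -3.56 ± 0.22 for ascending aorta minus coronary artery (limma adjusted p = 1.35e-06). Tln1 encodes talin, which activates integrins. It averaged 7.31 ± 0.16 in superior mesenteric artery, 6.37 ± 0.33 in coronary artery, and 6.98 ± 0.07 and 6.47 ± 0.12 in ascending and descending aorta, and passed for superior mesenteric artery against descending aorta and coronary artery (limma adjusted p = 0.03 and 0.0157). A further pair of the list passed 1 contrast each without passing the F test, and both were picked with their values in view. Actn1, an alpha-actinin, was higher by 2.30 ± 0.51 in ascending aorta than in coronary artery (limma adjusted p = 0.0327). Nexn, the actin-binding protein nexilin, was higher by 2.74 ± 0.62 in coronary than in superior mesenteric artery (limma adjusted p = 0.0295). Nexn was at 8.57, 8.29 and 8.27 in the coronary arrays, which carried heart muscle transcripts, and at most 7.16 elsewhere. The mean of Actn1 was lowest in coronary artery, at 5.32 ± 0.54, where smooth muscle markers were also lowest. The part of heart or smooth muscle transcripts in these values was not tested.

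Of 18 genes listed for the other laminin receptors of muscle, dystroglycan and its associated proteins, 13 were measured. Of these, 2 passed limma's F test (15.4%, beside 4.72% of all genes), and at an unadjusted p under 0.05 the count was also 2 (15.4%, beside 16.4%). Sgca, the striated muscle alpha-sarcoglycan, averaged 6.03 ± 0.44 in coronary artery and between 3.59 and 3.84 in the other vessels (limma F test adjusted p = 0.00275). Sntb1, a syntrophin, averaged 5.11 ± 0.24 and 5.02 ± 0.08 in ascending and descending aorta and 4.26 ± 0.15 and 4.37 ± 0.20 in coronary and superior mesenteric artery (limma F test adjusted p = 0.0195). Itgb1bp2 and Sgca were highest in the arrays with a cardiomyocyte marker mean above 10, and the part of heart muscle in their levels was not tested. Of 21 basement membrane genes that are not laminins, among them the collagen IV, nidogen and perlecan genes, 0 passed limma's F test, and 2 did at an unadjusted p under 0.05 (9.52%, beside 16.4% of all genes).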

How the data were processed

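RNA from 12 samples, 3 for each of 4 arteries, was hybridised to Affymetrix arrays. The authors deposited log2 values for 35556 probe sets; the submitters' processing notes name RMA and Partek 6.6, without their roles, and the values were used as deposited. Scanner files, background signal and scan dates were not used here.

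The platform annotation gave 1 gene symbol to 21789 probe sets, several to 1621 and none to 12146. Where a gene had several probe sets of its own, the brightest on average was kept, which left 19938 genes. Each array's vessel was read from its title. All genes and all 12 arrays entered a limma 3.58.1 fit (R 4.3.3) with a mean for each vessel, leaving 8 residual degrees of freedom. The moderated F test and each of 6 contrasts were adjusted by Benjamini-Hochberg over all genes, and "passed" and "called" mean an adjusted p under 0.05. The medians of the arrays were between 4.04 and 4.18. Precision is limited by having 3 arrays a vessel. No set test was run.

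The members, gene lists and marker lists were chosen with earlier results of these data known. Members past the threshold are given with every array's value and the rest by role; from each further list at most 5 genes past the F test are named. Npnt, Actn1 and Nexn fall outside that rule and were picked with their values in view. On simulated data, for ascending aorta against coronary artery with 200 of 19938 genes changed in each of 5 runs, the fit recovered 38.8% of 2-fold, 91.6% of 4-fold, 96% of 8-fold and 97.6% of 16-fold changes, with 4.48% of calls false; genes were drawn independently, with equal spread in all vessels. Promoter windows came from RefSeq (GRCm38.p6). Python 3.11.15 with matplotlib 3.10.9 made the figures. Alternatives are given with their effect in the closing section.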

Additional observations from a re-analysis of the deposited data

How the results depend on the processing

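Over the alternatives run, the called differences of Itga8, Itgb6 and Itga6 kept their direction; whether they passed depended on the setting, and the cause was not tested except where fewer arrays or genes entered. The Itgb6 difference between coronary artery and descending aorta passed in 23 of 23 alternatives, Itga8 between ascending aorta and coronary artery in 18 of 24 and Itga6 between descending aorta and superior mesenteric artery in 19 of 24. Itgb6 against superior mesenteric artery passed in 16 of 23 and against ascending aorta in 15 of 23. At the threshold of 0.05 the F test called Itgb6 in 18 of 21 alternatives, Itga8 in 13 of 22 and Itga6 in 12 of 22. Removing 1 array at a time ended the F test call of Itga6 in 9 of 12 fits, of Itga8 in 8 and of Itgb6 in 2. A renewed quantile normalization, median centring and averaging probe sets left the counts of members called as they were.

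Leaving out 1 array at a time, the limma count of members ranged from 0 to 5 in the F test, 0 to 3 for ascending aorta against coronary artery, 0 to 0 for ascending against descending aorta, 0 to 3 for ascending aorta against superior mesenteric artery, 1 to 3 for coronary artery against descending aorta, 0 to 4 for coronary against superior mesenteric artery and 0 to 3 for descending aorta against superior mesenteric artery. In the F test the share of all genes was 3.02% without coronary artery replicate 3 and 9.15% without ascending aorta replicate 1. At a threshold of 0.01 limma called 0 in the F test and for ascending aorta against coronary artery. It also called 0 for superior mesenteric artery against coronary artery or descending aorta. At that threshold 2.2%, 1.14%, 1.52% and 1.18% of all genes passed, in that order. Leaving out the dimmest 25% of genes removes Itgb6. That fit gave 1 for ascending aorta against coronary artery (3.4% of the genes kept) and 0 for coronary against superior mesenteric artery (4.36%). With array weights the F test called 6 (9.12% of all genes), and the pairs 1 (ascending aorta against superior mesenteric artery), 3 (coronary artery against descending aorta), 5 (coronary against superior mesenteric artery) and 6 (descending aorta against superior mesenteric artery), with 2.22%, 5.49%, 5.66% and 6.8% of all genes. With the B and T cell marker mean as a covariate these 4 pairs gave 1, 2, 4 and 2 (1.08%, 4.91%, 3.82% and 2.49% of all genes). A further fit left out 3 arrays named from earlier results of these data for transcripts of another tissue. They were replicate 1 of either aortic segment and replicate 3 of superior mesenteric artery. In that fit ascending aorta against superior mesenteric artery gave 1 (1.66% of all genes) and coronary artery against descending aorta 2 (3.63%). Itgb6 no longer passed there against ascending aorta or superior mesenteric artery (limma adjusted p = 0.0694 and 0.0595). With only the 6 arrays of a pair, ascending aorta against coronary artery gave 1 and coronary artery against descending aorta 4. Descending aorta against superior mesenteric artery gave 2. Those pair counts stand without the share of all genes and are not read as a trait of the members.

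Added after seeing the data, the smooth muscle marker mean as a covariate gave 10 members in the F test (8.94% of all genes passed in that fit), 9 for ascending aorta against coronary artery (5.72%), 1 for ascending aorta against superior mesenteric artery (0.802%), 5 for coronary artery against descending aorta (3.54%), 12 for coronary against superior mesenteric artery (7.33%) and 6 for descending aorta against superior mesenteric artery (6.26%). Without the 3 arrays highest in B and T cell markers, also added, the counts were 12 in the F test (10.5% of all genes) and 7, 1, 3, 4, 9 and 8 in the pairs, in the order of the leave-one-out ranges above, with 5.73%, 0.166%, 2.78%, 6.68%, 6.59% and 6.62% of all genes.

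The replicate number as a block (replicate block) gave 2 members in the F test (4.55% of all genes), with Itga8 at an adjusted p of 0.0588 in limma. In the pairs it gave 2, 0, 0, 1, 1 and 1, with 2.47%, 0%, 0.115%, 2.63%, 3.18% and 3.21% of all genes. Of 18 same-number pairs of arrays, 0 had deviations correlated above 0.1 (-0.251 to 0.0889). Of 12 arrays, 3 correlated best with their own number. Other tissue in single arrays could hide pairing, which stays undecided.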
